A study of Mus musculus with 12 samples.

Results

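The genes described here copy the DNA of a cell and supply the nucleotides for it. They were chosen by name as a list of 49 genes, with earlier results of these data known. Of these, 47 were among the 11834 genes of the deposited table, and Cdc6 and Gins1 were not. Their levels were measured by polyA RNA sequencing of the lactating mammary gland in 7 mice that lack butyrophilin 1a1 (genotype Btn1a1-/-, called KO) and 5 wild-type mice (WT), 1 library per mouse. Btn1a1 encodes a protein of the apical membrane of milk-secreting cells, which wraps fat globules as they leave the cell. All 12 mice were C57BL/6 females in lactation 1. The KO glands were taken on day 10 in 5 mice, on day 8 in replicate 3 and on day 11 in replicate 4, and the WT glands on day 10 in 3 mice, on day 9 in replicate 2 and on day 11 in replicate 3. The mutant line was kept apart by crossing heterozygotes while WT mice were bred in harems, and which of the 2 diets each mouse ate is not stated, so genotype, line and diet cannot be told apart. By its title, the study concerned death and renewal of mammary epithelial cells when Btn1a1 is missing.

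DNA replication starts when origin recognition complex proteins (Orc) and Cdt1 load the ring-shaped Mcm2 to Mcm7 helicase onto origins, a step called licensing, and when Cdc45 and the GINS proteins switch that helicase on. DNA polymerases, the sliding clamp PCNA with its loader RFC, and the single-strand binding protein RPA then build the fork, while ribonucleotide reductase, thymidylate synthase and thymidine kinase feed it with deoxynucleotides. Many of these genes are transcribed at the passage from G1 into S phase under E2F transcription factors, and in the mammary gland such cell division is known best from pregnancy, before milk secretion is established.

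Values are log2 CPM, log2 read counts scaled to the library total, whose ranks hold nearly the same values in every library, as quantile normalization would leave them. Every change is KO minus WT on that scale. A gene was called where the adjusted p from limma, corrected over all 11834 genes, was under 0.05. The estimated depth was 17.1 M to 34.7 M reads per library, so the members near 0 log2 CPM rest on few reads. The targeted gene checked the labels, with Btn1a1 at 5.63 ± 0.30 log2 CPM in KO (SD, n = 7) and 11.07 ± 0.09 in WT (SD, n = 5). All 10 markers of milk-secreting epithelium were in the table, whereas 0 of 8 T and NK cell markers and 0 of 5 neutrophil markers were. In the mean level of the genes described here, over the WT mean, KO replicate 4 was the highest KO library (1.18) and KO replicate 5 the lowest (-0.14). The other KO libraries were spread between 0.25 and 0.87. This is bulk tissue, in which more cells of a dividing type and more RNA per cell cannot be told apart.

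Of the 47 members, 6 were called higher in KO and 0 lower. They were Mcm2, Mcm3, Mcm4, Mcm5, Mcm6 and Uhrf1. Of all genes tested, 4.84% were called higher, 4.52% lower and 9.36% in either direction, so the members' share on the higher side was 12.8%. With an unadjusted p under 0.05, 24 members were higher, against 12.2% of all genes, and 1, Orc5, was lower, against 14.4% of all genes. The log2 change was above 0 for 41 of the 47 members, against 44.6% of all genes, and its median was 0.39, against -0.03 over all genes. Every KO library lay above every WT library for 4 members, Mcm2, Mcm4, Mcm5 and Mcm6, against 2.69% of all genes. The authors' deposited table, in which 4.55% of all genes were higher at an adjusted p under 0.05, had 4 such members, namely Mcm2, Mcm4, Mcm6 and Rfc3. There Mcm3 (adjusted p = 0.0728), Mcm5 (0.0733) and Uhrf1 (0.104) did not pass. Of the 6 calls, 5 were helicase subunits, as were all 4 members whose groups did not overlap. The other counts were spread over the roles: outside the helicase, 18 of 41 members had an unadjusted p under 0.05 and were higher, and 35 of 41 had a change above 0. Because the list was chosen with earlier results known, the members' shares are a description and were not tested as a set.

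**Figure D1:**
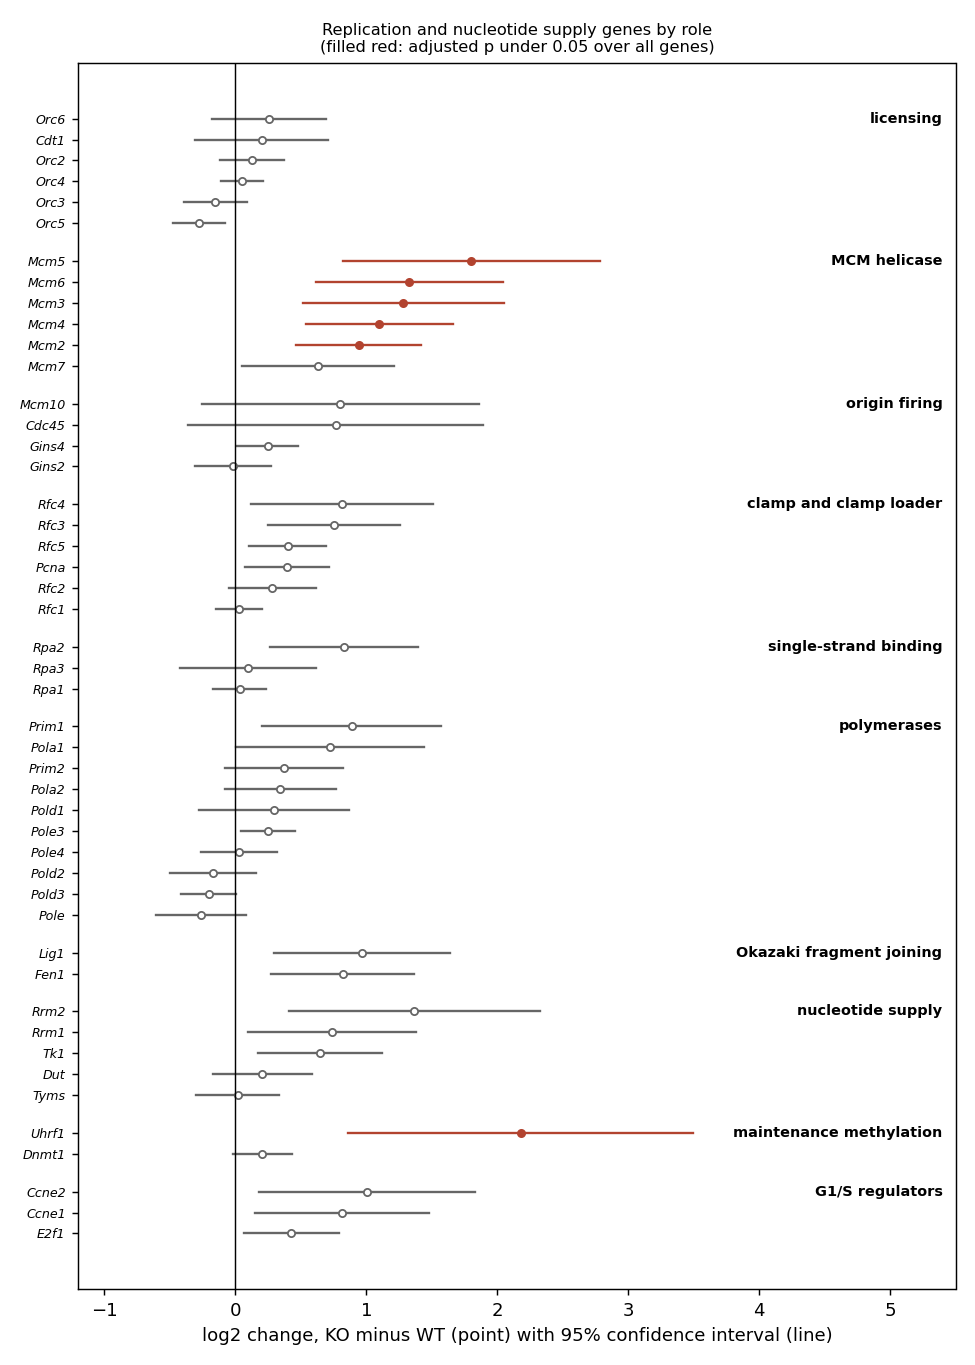
Log2 change, KO minus WT, of each of the 47 members with its 95% confidence interval, grouped by role; filled red points are the 6 called genes. The MCM helicase subunits lie at 0.63 to 1.80, all to the right of 0, while the licensing genes lie around 0 from -0.28 to 0.26.

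The helicase that unwinds DNA at the fork is a ring of Mcm2, Mcm3, Mcm4, Mcm5, Mcm6 and Mcm7, and 5 of these 6 genes were called higher in KO. The median change of the 6 was 1.19. Mcm5, on mouse chromosome 8 (chr8:75109569-75128439, mm10, plus strand), changed most. It ran from 0.32 in the lowest KO library through a median of 1.91 to 3.24 log2 CPM in the highest, while the WT libraries held 0.20, -0.11, 0.31, -0.50 and -0.07. The change was 1.80 (SE 0.45, 95% confidence interval 0.82 to 2.78, adjusted p = 0.0280), or 3.48-fold. No KO library overlapped the WT libraries, but KO replicate 5 lay just above the highest of them.

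Mcm6 (chr1:128331590-128359664, minus strand) had 2.33 at the lowest, 3.22 at the median and 4.66 log2 CPM at the highest in KO, against 1.86, 2.24, 1.67, 1.76 and 1.99 in WT. It was higher by 1.33 (SE 0.33, adjusted p = 0.0269), or 2.51-fold, and the groups did not overlap. Mcm4 (chr16:15623897-15637400, minus strand) had 1.48, 2.38 and 3.44 log2 CPM as the lowest, median and highest KO values, against 1.44, 1.28, 1.07, 1.37 and 0.90 in WT. Its change of 1.10 (SE 0.26, adjusted p = 0.0203) came to 2.14-fold, again with no overlap between the groups. The start of Mcm4 lies 466 bases from that of Prkdc, a DNA repair kinase gene that runs the other way. Prkdc had a change of -0.24 (SE 0.10, adjusted p = 0.130) and so was not called, unlike its neighbour.

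Mcm2 (chr6:88883474-88898780, minus strand) had 1.66, 2.21 and 3.00 log2 CPM as the lowest, median and highest KO values, against 1.10, 1.51, 0.84, 1.40 and 1.37 in WT. Its change was 0.94 (SE 0.22, adjusted p = 0.0200), or 1.92-fold, and the lowest KO library lay above the highest WT library. Mcm3 (chr1:20802968-20820312, minus strand) had 0.06, 1.31 and 2.83 log2 CPM at the lowest, median and highest in KO, against 0.10, 0.24, 0.50, -0.0034 and -0.17 in WT. Its change was 1.28 (SE 0.36, adjusted p = 0.0393), and here KO replicate 5 lay among the WT libraries while the other 6 KO libraries lay above all of them.

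Mcm7, the remaining subunit of the ring, did not pass the test. Its KO values were 1.29 at the lowest, 2.29 at the median and 3.38 at the highest, against 1.79, 1.71, 1.46, 1.60 and 1.56 log2 CPM in WT. The change was 0.63 (SE 0.27, 95% confidence interval 0.05 to 1.21, adjusted p = 0.155), with 5 KO libraries above all WT libraries and KO replicate 5 below all of them. Exons of Cops6 and Ap4m1 on the opposite strand overlap exons of Mcm7 in GENCODE M21, as do the microRNA genes Mir25 and Mir93 on the same strand. Its counts are thus less certain, while no such overlap was found for the 5 called subunits. Other members also have overlapping exons, among them Orc6, Cdc45, Rfc4, Rfc5, Lig1 and Tk1. The effect of these overlaps on the changes was not tested.

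**Figure D2:**
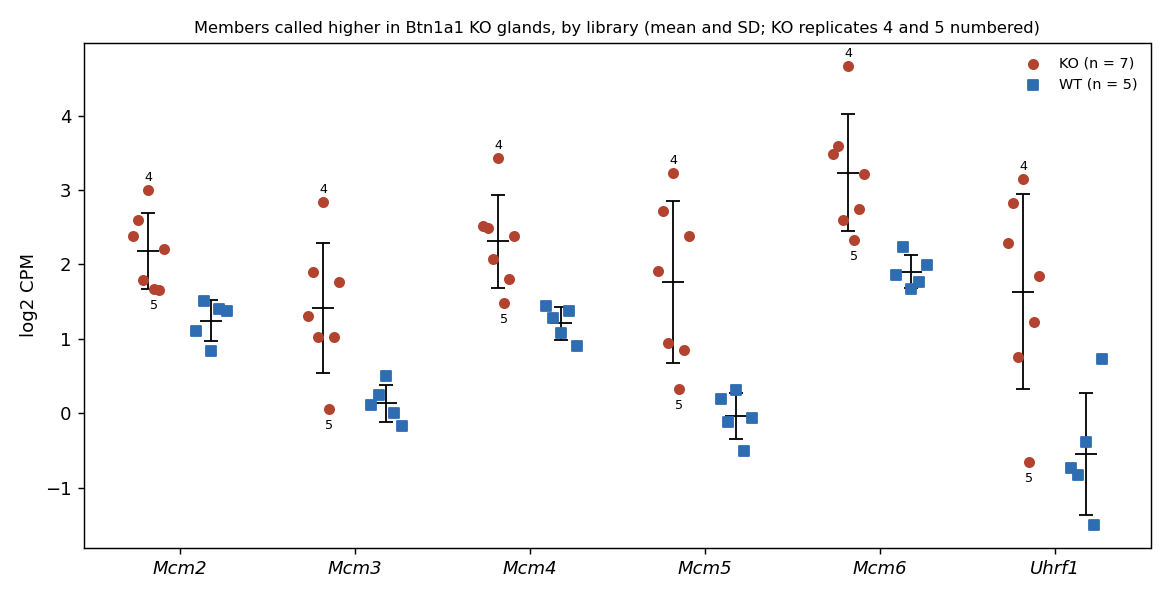
Level in log2 CPM of the 6 called members in each library, KO as red circles left of WT as blue squares, with the mean and SD of each group as black bars; the numbers mark KO replicates 4 and 5. KO replicate 4 is the highest library for every gene drawn, and KO replicate 5 lies among the WT libraries for Mcm3 and Uhrf1.

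The adjusted p of these calls lay near the threshold, while the changes stayed of like size when 1 library was left out. They ran from 0.91 to 1.24 for Mcm4, from 0.81 to 1.03 for Mcm2, from 1.56 to 2.04 for Mcm5, from 1.09 to 1.48 for Mcm6 and from 1.04 to 1.51 for Mcm3. Leaving out 1 library in turn ended the call of Mcm4 without WT replicate 5 (adjusted p = 0.0533) and that of Mcm2 without WT replicate 1 or 3 (adjusted p of up to 0.0542). The call of Mcm5 ended without any 1 of KO replicates 1 and 2 and WT replicates 1, 2, 4 and 5 (adjusted p of up to 0.0639). That of Mcm6 ended without any 1 of KO replicates 1 and 2 and WT replicates 1, 3, 4 and 5 (up to 0.0645), and that of Mcm3 without KO replicate 1, 2 or 7 or any WT library (up to 0.0908). Without WT replicate 1 only Mcm4 kept its call, with 2.67% of all genes called higher. With the 5 KO and 3 WT libraries of day 10 alone, no member was called and 1.39% of all genes were called higher. The changes there were 1.76 for Mcm5 (SE 0.53, adjusted p = 0.110), 1.20 for Mcm6 (SE 0.26, adjusted p = 0.0504) and 0.81 for Mcm2 (SE 0.22, adjusted p = 0.0792). Mcm3 (adjusted p = 0.0970), Mcm4 (0.0840) and Uhrf1 (0.222) did not pass either. A change above 0 was seen in 37 of 47 members, with a median change of 0.35, against -0.02 over all genes.

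Sequence just before the start of Mcm5 and Mcm6, the MCM genes that changed most, and of Mcm2, a called subunit without the motif, is shown because E2F factors are known to act on such promoters. Each line holds the 250 bases before the RefSeq transcription start (GRCm38.p6), 5′ to 3′ on the gene's strand, and capitals mark matches on either strand to TTTGGCGC, TTTCCCGC, TTTGCCGC or TTTCGCGC, common spellings of the E2F site.
Mcm5, chr8:75109259-75109508, plus strand: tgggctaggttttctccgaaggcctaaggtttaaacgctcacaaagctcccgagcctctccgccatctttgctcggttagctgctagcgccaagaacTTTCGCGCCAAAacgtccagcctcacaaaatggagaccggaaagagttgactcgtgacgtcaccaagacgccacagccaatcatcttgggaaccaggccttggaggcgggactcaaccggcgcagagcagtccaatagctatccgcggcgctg
Mcm6, chr1:128359706-128359955, minus strand: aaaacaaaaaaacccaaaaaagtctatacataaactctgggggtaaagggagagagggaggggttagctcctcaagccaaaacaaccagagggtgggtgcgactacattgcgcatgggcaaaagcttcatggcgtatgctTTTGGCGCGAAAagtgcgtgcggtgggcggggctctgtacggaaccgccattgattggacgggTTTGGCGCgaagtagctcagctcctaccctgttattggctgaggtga
Mcm2, chr6:88898781-88899030, minus strand: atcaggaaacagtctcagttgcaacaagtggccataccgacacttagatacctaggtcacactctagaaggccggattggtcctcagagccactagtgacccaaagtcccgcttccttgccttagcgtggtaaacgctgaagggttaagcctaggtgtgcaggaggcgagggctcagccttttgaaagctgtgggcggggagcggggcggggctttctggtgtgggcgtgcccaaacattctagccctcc
Counted from the start as 0, the capitals begin at -153 in Mcm5 and at -110 and -47 in Mcm6. The longer run of Mcm6, TTTGGCGCGAAA, holds a match on each strand that overlap by 4 bases, and the run of Mcm5, TTTCGCGCCAAA, is its reverse complement. An overlapping pair of this kind stood in 3 of the 11362 promoter windows of genes in the table (0.0264%), and the third gene was Msh3, a mismatch repair gene outside the list.

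Across the windows from 250 bases before to 50 after a start, 40 members had at least 1 entry in RefSeq and 52 windows in all. A spelling of the E2F site stood in 15 of these 52 windows (28.8%), against 3.93% of the 11362 windows of genes in the table. Counted by gene, it stood in 4 of the 5 called members with an entry, Mcm3, Mcm5, Mcm6 and Uhrf1, and in 10 of the 35 members that were not called (28.6%), among them Mcm7, Rfc3, Lig1, Pola1, Cdt1, Dnmt1 and Orc3, against 423 of the 8874 genes of the table with an entry (4.77%). The changes of those 10 ran from -0.21 (Pold3) to 0.97 (Lig1). The CCAAT letters stood in all 5 called members and in 18 of the 35 others (51.4%), against 42.7% of genes in the table. A match here is a run of letters, and no binding was measured.

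Licensing genes mark where replication can start. None of the 6 in the table was called, and their median change was 0.09. Orc5, a subunit of the origin recognition complex, lay lowest of all members, with 2.16, 2.37 and 2.57 log2 CPM as the lowest, median and highest KO values against 2.77, 2.47, 2.61, 2.70 and 2.59 in WT. Its change was -0.28 (SE 0.09, adjusted p = 0.0737), with 6 of 7 KO libraries below all WT libraries. The other complex subunits, Orc2 (0.13), Orc3 (-0.15), Orc4 (0.05) and Orc6 (0.26), had adjusted p from 0.408 to 0.723. Cdt1, which brings the helicase to the origin complex, had a change of 0.20 (SE 0.24, adjusted p = 0.630). Thus 0 of 6 licensing genes and 5 of 6 helicase subunits were called; the difference between these counts was not tested.

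Firing factors, which convert the loaded helicase into an active one, gave no call among 4. Cdc45, a part of the active helicase, had -2.49, -0.29 and 1.04 log2 CPM as the lowest, median and highest KO values against -0.50, -1.07, -1.95, -1.12 and -1.25 in WT. Its KO libraries spread on both sides of WT, with 4 above all WT libraries and replicate 5 below all of them, and the change of 0.77 had an SE of 0.53 (adjusted p = 0.379). Mcm10, needed for the helicase to start moving, was alike, at 0.80 (SE 0.50, adjusted p = 0.320) with KO values from -2.23 to 1.16. Both genes average under 0 log2 CPM in either group, where reads are few. The GINS subunits Gins4 (0.25, adjusted p = 0.162) and Gins2 (-0.02, adjusted p = 0.953) were not called either.

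PCNA is the clamp that tethers polymerases to DNA, and Rfc1 to Rfc5 form the complex that loads it. Pcna had 4.02, 4.45 and 5.00 log2 CPM as the lowest, median and highest KO values against 4.08, 3.89, 4.20, 3.99 and 4.10 in WT. The change was 0.39 (SE 0.15, adjusted p = 0.110), and 5 of 7 KO libraries lay above all WT libraries. The pseudogenes Pcna-ps1 and Pcna-ps2 could share its reads. Among the loader subunits the largest one, Rfc1, had a change of 0.03 (SE 0.08, adjusted p = 0.876), and the small subunits had 0.28 (Rfc2), 0.75 (Rfc3), 0.81 (Rfc4) and 0.40 (Rfc5). None was called, and the smallest adjusted p, 0.0590, was that of Rfc3. In the authors' deposited table Rfc3 was past the threshold (adjusted p = 0.0484). Rfc3 had 0.26, 0.86 and 1.39 log2 CPM at the lowest, median and highest in KO against -0.27, -0.01, -0.06, 0.92 and -0.17 in WT, where replicate 4 reached into the KO range.

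RPA covers single-stranded DNA at the fork as a complex of 3 subunits, which differed in their values. Rpa2, the subunit phosphorylated in the cell cycle, had 0.36, 1.17 and 2.20 log2 CPM at the lowest, median and highest in KO against 0.40, 0.54, 0.40, -0.08 and 0.70 in WT. Its change of 0.83 (SE 0.26, adjusted p = 0.0616) did not pass, though 6 of 7 KO libraries lay above all WT libraries. Rpa1, the large DNA-binding subunit, had a change of 0.03 (SE 0.10), with a 95% confidence interval of -0.17 to 0.24, and Rpa3 had 0.10 (SE 0.24).

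Among the polymerase genes 0 of 10 were called, with a median change of 0.27. The 4 subunits of polymerase alpha-primase, which lays down the first primers, all had changes above 0. Prim1, the catalytic primase, had the largest, 0.89 (SE 0.32, adjusted p = 0.0942), with KO values from -0.25 through a median of 0.99 to 2.00 log2 CPM and WT values of -0.17, 0.05, -0.12, 0.41 and -0.27. Pola1, the catalytic subunit, had 0.72 (SE 0.34, adjusted p = 0.186), Prim2 had 0.37 and Pola2 had 0.34. The subunits of polymerases delta and epsilon, which copy the lagging and leading strands, lay on both sides of 0. Pold1 (0.29) and Pole3 (0.25) were above it, Pole4 (0.02) near it, and Pold2 (-0.17), Pold3 (-0.21) and Pole (-0.26) below it. Pole, the catalytic subunit of polymerase epsilon, shares a head-to-head start with Pxmp2, a peroxisomal membrane protein gene, whose change was -0.69 (SE 0.17, adjusted p = 0.0227) and which is named after its value was seen.

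The enzymes that finish Okazaki fragments, the short pieces of the lagging strand, came close to the threshold. Fen1, the nuclease that trims the fragments, had 2.00, 3.28 and 3.70 log2 CPM as the lowest, median and highest KO values against 2.24, 2.29, 2.33, 1.99 and 2.08 in WT. Lig1, the ligase that seals them, had 0.36, 1.67 and 2.79 in KO against 0.70, 0.80, 0.69, 0.54 and 0.63 in WT. The changes were 0.82 for Fen1 (SE 0.25, adjusted p = 0.0596) and 0.97 for Lig1 (SE 0.31, adjusted p = 0.0674). In both genes 6 of 7 KO libraries lay above all WT libraries and replicate 5 did not. The exons of Fen1 overlap those of Tmem258 and Gm10143 on the opposite strand, and Tmem258 itself had a change of 0.07 (adjusted p = 0.602).

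Of the 5 genes of deoxynucleotide supply, none was called and the median change was 0.65. Rrm2, the S-phase subunit of ribonucleotide reductase, had the largest change of them. Its KO values were 0.49 at the lowest, 2.42 at the median and 3.63 log2 CPM at the highest, against 1.41, 0.57, 1.02, 1.04 and 0.79 in WT. The change was 1.37 (SE 0.44, 95% confidence interval 0.41 to 2.33, adjusted p = 0.0728), with 6 KO libraries above all WT libraries and replicate 5 below all of them. Its partner Rrm1 had 0.74 (SE 0.30, adjusted p = 0.132), and Rrm2b, the alternative small subunit known for supply outside S phase and not on the list of 49, had -0.12 (SE 0.08, adjusted p = 0.336). Tk1, the cytosolic thymidine kinase, had 0.65 (SE 0.22, adjusted p = 0.0802), and Dut, which removes dUTP, had 0.21 (SE 0.18). Tyms, which makes thymidylate, had 0.02 (SE 0.15, 95% confidence interval -0.30 to 0.33), with KO values from 1.28 to 1.88 lying wholly inside the WT span of 1.21 to 1.95. A pseudogene, Tyms-ps, could share its reads.

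Uhrf1, which brings the methyltransferase Dnmt1 to newly copied DNA, had the largest change of all members. It lies on chromosome 17 (chr17:56303321-56323486, plus strand). Its KO values were -0.66 at the lowest, 1.85 at the median and 3.15 log2 CPM at the highest, against -0.74, -0.83, -0.39, -1.50 and 0.74 in WT. The change was 2.18 (SE 0.61, 95% confidence interval 0.86 to 3.50, adjusted p = 0.0428), or 4.53-fold, and the groups overlapped through KO replicate 5 and WT replicate 5. The call ended without any 1 of KO replicates 1, 2, 4 and 7 and WT replicates 1, 2, 3 and 4 (adjusted p = 0.0975 at most). Dnmt1 had 3.69, 3.87 and 4.25 log2 CPM at the lowest, median and highest in KO against 3.69, 3.73, 3.91, 3.74 and 3.70 in WT, a change of 0.21 (SE 0.11, adjusted p = 0.229).

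The regulators of S-phase entry all had changes above 0, and none passed. Ccne1 and Ccne2 encode E-type cyclins, which with Cdk2 start S phase, and E2f1 encodes the founding E2F factor. The changes were 0.82 for Ccne1 (SE 0.31, adjusted p = 0.110), 1.01 for Ccne2 (SE 0.39, adjusted p = 0.113) and 0.43 for E2f1 (SE 0.17, adjusted p = 0.122). E2f1 had 1.65, 2.31 and 2.75 log2 CPM as the lowest, median and highest KO values against 1.66, 1.77, 1.82, 2.05 and 1.66 in WT, with 4 KO libraries above all WT libraries and replicate 5 below them.

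**Figure D3:**
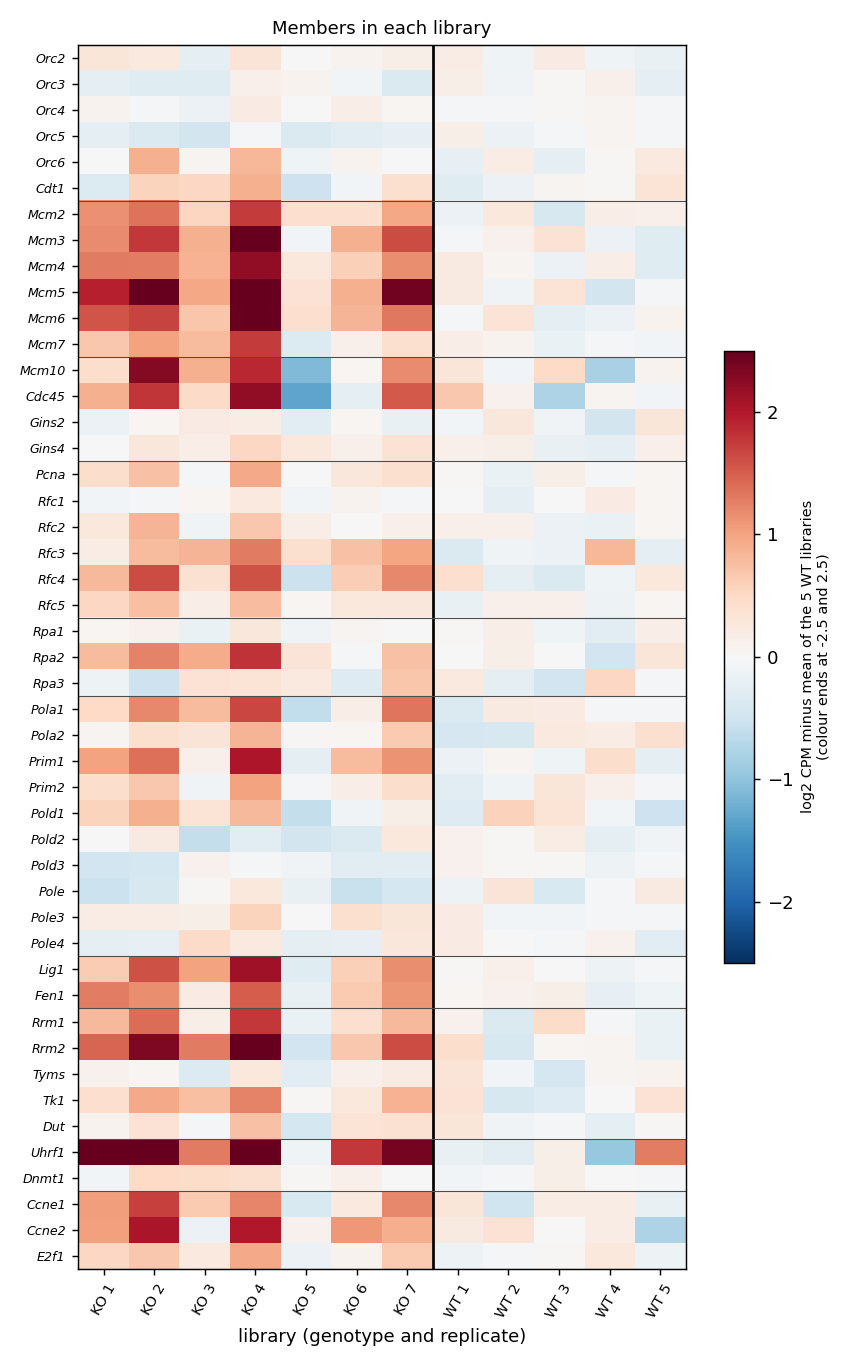
Level of each of the 47 members in each of the 12 libraries, as log2 CPM minus the mean of the 5 WT libraries, KO left of WT, with thin lines between roles; colour ends at -2.5 and 2.5. KO replicate 4 is red for most genes and KO replicate 5 is pale or blue for most, while the WT columns stay pale.

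The KO glands differed far more among themselves than the WT glands did. The SD over KO libraries was above that over WT libraries for 40 of the 47 members, against 63.1% of all genes. The median SD of a member was 0.417 log2 in KO and 0.221 in WT, against 0.223 in KO and 0.189 in WT over all genes. KO replicate 4, taken on day 11, had 39 of 47 members above all WT libraries and was the highest KO library for 34 of them. KO replicate 5, taken on day 10, had 7 members above all WT libraries and was the lowest KO library for 27. The other KO libraries had 26 (replicate 1), 34 (replicate 2), 22 (replicate 3), 17 (replicate 6) and 33 (replicate 7) members above all WT libraries. Across all genes, between 16.7% (replicate 5) and 26.2% (replicate 4) lay above all WT libraries in a KO library.

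Mean levels show the same order. Averaged over the 47 members as log2 CPM minus the WT mean, the KO libraries held 0.49, 0.87, 0.33, 1.18, -0.14, 0.25 and 0.65 in order of replicate number, and the WT libraries lay between -0.04 and 0.05. Thus 6 KO libraries lay above all WT libraries and replicate 5 lay below all of them. For Mcm2 to Mcm7 alone all 7 lay above, at 0.18 for replicate 5 and 0.62 to 2.41 for the others, against -0.08 to 0.13 in WT. Without KO replicate 5, 18 members were called higher, against 5.41% of all genes, and 0 lower. The 12 added to the 6 were Mcm7, Rfc4, Rfc5, Rpa2, Pola1, Prim1, Lig1, Fen1, Rrm2, Tk1, Ccne1 and E2f1, and Rrm2 then had a change of 1.67 (SE 0.30, adjusted p = 0.00636). Leaving out a library because it is low also raises the changes, so these values are given beside those of all libraries and do not replace them. The estimated depth of replicate 5 was 24.2 M reads, against 23.2 M to 34.7 M in the other KO libraries, of which only replicate 7 was lower. This estimate is rough, and the part of depth in the low values of replicate 5 was not tested.

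Within groups, the members moved together from library to library. Over the 12 libraries, each centred on its group, 16 of the 41 uncalled members correlated above 0.8 with the mean profile of the 6 called ones, with a median Pearson r of 0.71. Over all genes the median was -0.05, and 183 genes were above 0.8. The closest members were Fen1 (0.92), Pcna, Lig1, Rrm1 and Rrm2, and the farthest were Pold3 (-0.19), Orc3 (-0.11) and Rpa3 (-0.09). Outside the list the 10 most alike genes were Srpx (0.95), Ccna2 (0.94), Tmpo, Tubb5, Hmmr, Ncapg2, Anln, Wdhd1, Cdk1 and Suv39h1 (0.93). Libraries share their glands and normalization, KO replicates 4 and 5 weigh heavily in every such value, and genes were picked from 11832, so these correlations are a description.

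Of 91 other genes of these pathways in the table, 10 were called higher in KO (11.0%) and 1 lower. Over all genes 4.84% were called higher and 4.52% lower. Chromatin assembly and fork factors supplied most of the higher ones. Timeless, which keeps the helicase and polymerases together, had 0.27, 1.03 and 1.95 log2 CPM as the lowest, median and highest KO values against -0.59, 0.05, -0.83, -0.64 and -0.37 in WT, a change of 1.59 (SE 0.31, adjusted p = 0.00720) without overlap. Chaf1a, a subunit of the histone chaperone that follows the fork, rose by 1.61 (SE 0.36, adjusted p = 0.0157), also without overlap. Hells, a chromatin remodeller needed for DNA methylation, rose by 1.83 (SE 0.53, adjusted p = 0.0454). Cdc7, the kinase that fires origins, rose by 1.04, Donson, a fork protein, by 0.74, and 2810417H13Rik, an older symbol of the PCNA-binding factor Pclaf, by 1.21. Ccna2, the cyclin of S and G2 phase, rose by 2.24 (SE 0.48, adjusted p = 0.0156), the one called gene among 26 other G1/S regulators. Cyclin D1 (Ccnd1), at -0.02 (SE 0.29), and the inhibitor Cdkn1a, at 0.39 (SE 0.31), were not called. The calls of Timeless, Chaf1a and Ccna2 held when any 1 library was left out, with adjusted p of up to 0.0227, 0.0433 and 0.0435. In the authors' statistics Ccna2 (adjusted p = 0.0543) and Cdc7 (0.0570) did not pass, while Timeless (0.0234) and Donson (0.0261) did. The calls of Cdc7, Donson and Hells ended without at least 1 of the libraries (adjusted p of up to 0.0899, 0.0605 and 0.103).

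Other nucleotide synthesis genes showed no common direction. Of 30, 3 rose, 1 fell and 26 did not pass, with a median change of -0.0032. Impdh2 and Impdh1, enzymes of guanine nucleotide synthesis, rose by 0.46 (SE 0.13, adjusted p = 0.0421) and 0.29 (SE 0.09, adjusted p = 0.0471). With 1 library left out, the adjusted p of Impdh2 reached 0.0934. Shmt2, the mitochondrial serine enzyme that provides one-carbon units, had 2.73, 2.86 and 3.23 log2 CPM as the lowest, median and highest KO values against 3.62, 3.67, 3.47, 3.48 and 3.36 in WT. It fell by 0.59 (SE 0.09, adjusted p = 0.00316, at most 0.0116 with 1 library left out), with all KO libraries below all WT libraries. Of the 9 replication checkpoint genes none was called, and 7 had a change below 0.

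The mitosis markers followed the members from library to library. Beside the marker counts given here stand the shares over all genes, 4.84% called higher and 4.52% lower. Of 18 mitosis markers 12 were called higher and 0 lower, and their mean level over WT in the KO libraries was 1.74, 2.57, 1.12, 2.74, -0.02, 1.07 and 1.75 in order of replicate number, lowest again in replicate 5, against -0.14 to 0.20 in WT. Top2a rose by 1.71 (SE 0.44, adjusted p = 0.0324) and Ccnb1 by 2.53 (SE 0.55, adjusted p = 0.0144), whereas Mki67, a widely used proliferation marker, had a change of 0.13 (SE 0.15, adjusted p = 0.623). In the authors' statistics, of the 18 only Aurka, Ube2c and Kif20a had an adjusted p under 0.05 (0.0463, 0.0495 and 0.0278). Top2a had 0.0534 there and Ccnb1 0.0702. Macrophage markers, all 10 in the table, gave 4 higher and 0 lower, with sums of 109 to 216 CPM in KO and 98.5 to 127 CPM in WT, and 6 of 7 KO libraries lay above all WT libraries in mean level. KO replicate 6 was the KO library lowest in these markers, at 0.03, and had 17 of 47 members and 18.7% of all genes above all WT libraries. KO replicate 5, the lowest for the members, stood at 0.48 in the macrophage markers, and KO replicates 1 to 4 stood at 0.62 to 0.66. Milk-secreting epithelium markers gave 2 of 10 higher, Krt8 and Epcam, and 0 lower. Their mean level over WT in the KO libraries was 0.07, 0.16, 0.06, 0.18, 0.04, 0.05 and 0.13 in order of replicate number. It was highest in replicate 4 and lowest in replicate 5, as for the members, against -0.05 to 0.05 in WT. Endothelial markers gave 0 of 6 higher and 1 lower, and adipocyte markers 1 of 7 higher and 0 lower. Basal and myoepithelial markers gave 5 of 9 higher. Their mean level over WT was highest in KO replicate 1 (0.58) and lowest in KO replicate 3 (-0.05), with KO replicate 5 at 0.20. Fibroblast markers, all 7 in the table, gave 0 calls, with sums of 143 to 393 CPM in KO and 143 to 208 CPM in WT. Their mean level over WT in the KO libraries was 0.47, 0.45, -0.04, 1.18, -0.01, -0.23 and 0.33 in order of replicate number, highest in replicate 4 as for the members, against -0.24 to 0.23 in WT, and 4 of 7 KO libraries lay above all WT libraries. With the macrophage level as a covariate, chosen after the data were seen, 1 gene of 11834 and no member was called. The changes were then 0.35 for Mcm2 (adjusted p = 0.811), 0.55 for Mcm4 (0.753), 0.78 for Mcm6 (0.737) and 1.27 for Mcm5 (at most 0.719). Because the macrophage level itself was above all WT libraries in 6 of 7 KO libraries, this fit cannot tell it apart from genotype. The part of these cell types in the members' result was not tested.

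Skeletal muscle markers, 12 of 12 in the table and none called, also varied between libraries. Their sums were 107 to 1730 CPM in KO and 73.8 to 506 CPM in WT. Their mean level over WT was highest in KO replicate 4 (2.78) and next in KO replicate 5 (1.92), the libraries with the highest and the lowest member levels, and lowest among KO libraries in replicate 6 (-1.13). With that level as a covariate no member was called and 1.5% of all genes were called higher; the changes were then 1.61 for Mcm5, 1.15 for Mcm6, 0.95 for Mcm4 and 0.78 for Mcm2, with adjusted p from 0.102 to 0.125. This covariate was chosen after the data were seen.

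**Figure D4:**
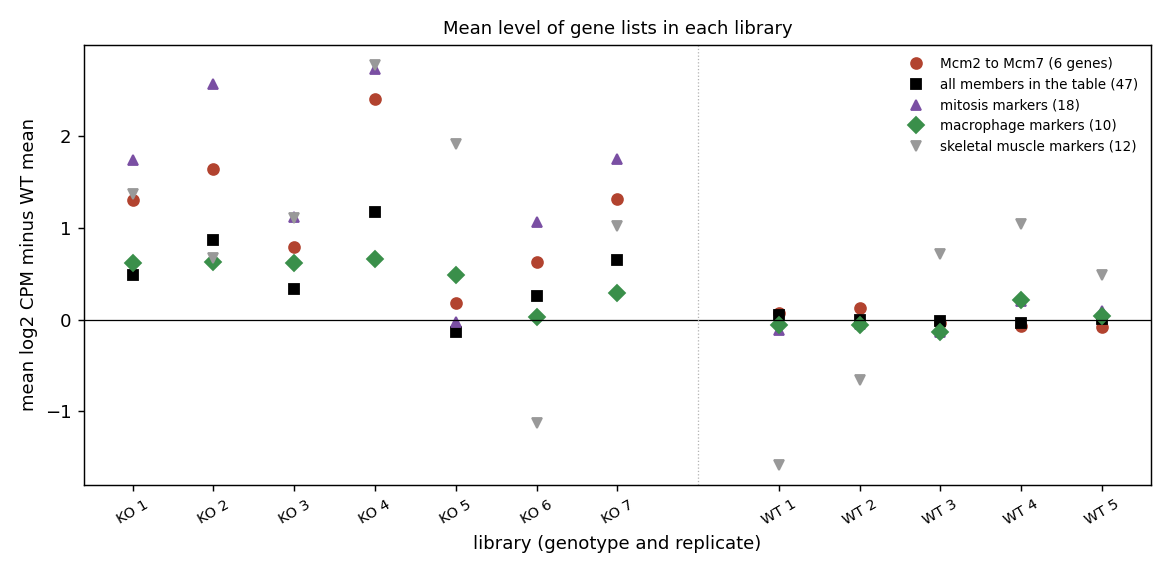
Mean log2 CPM minus the WT mean in each library, KO left of WT, for Mcm2 to Mcm7, all 47 members, and the mitosis, macrophage and skeletal muscle markers. The members follow the mitosis markers, both lowest in KO replicate 5 and highest in KO replicate 4, while the muscle markers reach 1.92 in replicate 5, where the members stand at -0.14.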

How the data were processed

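Gene expression was measured in 12 mammary gland libraries, 7 KO and 5 WT, 1 per mouse, from an Illumina TruSeq mRNA kit with paired reads, per the labels' protocols. The submitters' processing notes name STAR 2.5.2b, RSEM 1.3.0, limma 3.34.5, Trimmomatic 0.33 and bcl2fastq 2.17, and the builds hg19 and mm10 without their role; the annotation, the strand setting and the filter on genes are not given in the sources used here.

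For 11834 genes, the table that the authors deposited holds log2 CPM per library, and 67.1% of ranks differed by less than 0.01 log2 across libraries, from which quantile normalization before deposit was inferred; no source used here states it. Such values fix the level of the most abundant genes and fold changes are relative to the other genes. Beside these stand the authors' own log2 fold change, signed linear ratio and group SDs, their moderated t (a score) and their p-value, raw and adjusted. Total counts were not used here; depth was read off the spacing of neighbouring low values, which is rough because normalization changes it, so no counting interval is given.

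The log2 values were fitted with limma 3.58.1 (R 4.3.3) by genotype, with the trend and robust options of eBayes. Calls were made at an adjusted p under 0.05, two-sided, with Benjamini-Hochberg adjustment across the 11834 genes. The fit was tested on simulated data. SD is between libraries of a group and SE is from the fit. The members, pathway lists and markers were chosen with earlier results of these data known. Outside the 47 members, the rule for named genes took Btn1a1, up to 8 called pathway genes per direction by adjusted p, Rrm2b, Ccnd1 and Cdkn1a, some markers and the 10 most alike genes; 2810417H13Rik and Impdh1, called genes past the 8, Msh3, Prkdc, Tmem258 and Pxmp2 were named after their values were seen. 1 called pathway gene is counted but not reported here.

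Loci come from GENCODE M21 (mm10) by symbol (47 of 47 matched) and promoter sequences from RefSeq (GRCm38.p6; 40 of 47), read with Python 3.11.15; matplotlib 3.10.9 drew the figures. Pclaf was matched through its synonym. The alternatives were day 10 libraries alone, lactation day as a covariate, a replicate block, normalization repeated, median centring, a filter at a mean of 1 log2 CPM, plain eBayes, library weights, an adjusted p under 0.01, the authors' statistics and leaving out each library; covariates for muscle and macrophage levels were chosen after seeing the data. A pseudocount does not apply to values already in log2, and the deposited table was already filtered, so no fit without a filter was made.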

Additional observations from a re-analysis of the deposited data

Results flagged for a closer look

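Among 94 groups of member values (47 genes in KO and in WT), 3 held a library far from the rest by Dixon's ratio at the 95% level (3.19%), where chance alone gives about 1 in 20. All 3 were WT libraries. Rfc3 stood at 0.92 log2 CPM in WT replicate 4, inside the KO values of 0.26 to 1.39, with the nearest WT value at -0.01. Pole3, a small subunit of polymerase epsilon, stood at 3.39 log2 CPM in WT replicate 1, with the KO values between 3.19 and 3.74 and the next WT library at 3.16. Dnmt1 stood at 3.91 log2 CPM in WT replicate 3, with the KO values between 3.69 and 4.25 and the next WT library at 3.74.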

How the results depend on the processing

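Of the 6 calls, Mcm4 held under 19 of 24 alternatives, Mcm2 under 18, Mcm6 under 14, Mcm5 under 12, Uhrf1 under 9 of 23 and Mcm3 under 8 of 23, and none changed sign. The count of members called higher was 6 under repeated normalization and median centring, with 4.84% of all genes higher. It was 9 with lactation day as a covariate (5.44% of all genes) and 8 with library weights (5.87%). Plain eBayes gave 5 (3.91%) and the authors' statistics 4 (4.55%). With the filter, 4 of the 29 members tested were called (5.16% of genes tested), and Mcm3 and Uhrf1 were not tested. The count was 0 with day 10 libraries alone (1.39% of all genes) and at an adjusted p under 0.01 (1.28%). It was also 0 with the muscle (1.5%) or the macrophage covariate (0%). It ran from 1 to 18 with 1 library left out, against 2.67% to 5.66% of all genes. In those fits no member or 1 was lower, and library weights also gave 1 lower. The 12 such fits gave 559 to 1327 genes called in all, 3 to 14 pathway genes higher and 1 to 3 lower. Genes called in all fell to 268 (day 10), 249 (adjusted p under 0.01), 276 (muscle) and 1 (macrophage). Pathway genes called higher were 0 (day 10), 2 (filter), 6 (plain eBayes), 1 (adjusted p under 0.01), 5 (authors' statistics), 1 (muscle) and 0 (macrophage), and those lower were 2 with the day covariate, plain eBayes or library weights and 0 with the macrophage covariate.

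With the replicate block 3 members were higher, Mcm2, Mcm4 and Mcm6, against 4.93% of all genes. It also gave 5 pathway genes higher and 2 lower. No label says that the numbers pair mice, and same-numbered KO and WT libraries correlated at -0.17 to 0.21 and 2 of 5 had their own number as best partner. Under the replicate block Gins2 turned to 0.0015 and Tyms to -0.041.

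The changes below turned sign, and none of these genes was called with all libraries. With all libraries, the changes farthest from 0 among them were Cdc45 (0.77), Mcm7 (0.63), Cdkn1a (0.39), Pold1 (0.29), Orc6 (0.26) and Cdt1 (0.20). With day 10 alone Cdt1 was -0.024, Rfc1 -0.10, Rpa3 -0.24, Pold2 0.0060, Pole4 -0.13, Tyms -0.12, Ccnd1 0.062 and Cdkn1a -0.012. With the day covariate Ccnd1 was 0.00027, and with library weights Pole4 was -0.013. With the muscle covariate Gins2 was 0.029, Rfc1 -0.020, Rpa3 -0.030, Pole4 -0.0043 and Ccnd1 0.061. With the macrophage covariate Orc6 was -0.10, Cdt1 -0.11, Mcm7 -0.028, Cdc45 -0.13, Gins2 0.020, Rfc1 -0.045, Rpa3 -0.14, Pold1 -0.089, Pole4 -0.093, Ccnd1 0.32 and Cdkn1a -0.47. With 1 library left out Ccnd1 ran from -0.17 to 0.13, Gins2 from -0.13 to 0.061, Pole4 from -0.052 to 0.074, Rfc1 from -0.037 to 0.075, Rpa1 from -0.033 to 0.077, Rpa3 from -0.024 to 0.23 and Tyms from -0.086 to 0.10. The cause of these shifts was not tested. With 18 members averaging under 1 log2 CPM, reads limit the precision there.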
